A study of Mus musculus with 19 samples.

Results

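The cells described here are 400 cells of the regenerating mouse colon that carried the largest share of replication-dependent histone mRNA in a single-cell library taken on day 8 of regeneration. They were chosen by measured values. Of the 6794880 barcodes listed, 3253 passed a minimum of unique molecular identifiers (UMIs, counts of captured mRNA molecules), at least 500 genes and at most 20% mitochondrial UMIs; the shallowest cell described below held 6796 UMIs. Of these, 2020 had under 1% of their UMIs in 8 secretory genes (Reg4, Spink4, Agr2, Muc2, Tff3, Fcgbp, Clca1 and Zg16). The 250 of them with the largest share of the mitotic genes Ccnb1, Ccnb2, Cdc20, Cenpa, Cdkn3, Cenpf and Ube2c were set apart as mitotic cells. Of the remaining 1770 cells, the 400 with the largest share of Hist1h1b, Hist1h2ae, Hist1h2ap, Hist1h3c and Hist1h1a are the histone-high cells, 19.8% of the 2020, and the other 1370 are called the rest.

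The study asked how the colon epithelium restores its stem cells after they are killed, and it contains 1 single-cell library, 7 adult bulk RNA libraries and 8 bulk RNA libraries of embryonic hindgut, besides ChIP libraries that were not used here. The day 8 single cells came from Ascl2(mCh); Lgr5Dtr-Egfp+ mice on a mixture of the C57BL/6 and 129/Sv strains and were sorted as mCherry-positive and GFP-negative. The mCherry reports Ascl2, a transcription factor of crypt base cells, and the Lgr5 allele carries a diphtheria toxin receptor and GFP, so that toxin kills Lgr5-expressing stem cells. The toxin was given intraperitoneally at 50 ug/kg, in 4 injections on alternate days. The 2 bulk libraries of regenerating cells came from the same genotype, and their day is not given in the sources used here. The 2 Ascl2 KO libraries came from Ascl2Fl/Fl; Lgr5EGFP-Cre+ stem cells after tamoxifen (2 mg on days 1 and 2, 1 mg on day 3), in which Cre is driven from Lgr5. The 3 wild-type stem cell libraries carried Ascl2(mCh); Lgr5Dtr-Egfp+. Both adult wild-type and regenerating groups are labelled wild type in genotype, and the reporter alleles differ together with the knockout, so that the 2 cannot be told apart. Hindgut libraries, 2 each at E11, E12, E14 and E16, were of Epcam-sorted epithelium from CD1 wild-type embryos.

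A cell that copies its DNA must wrap the new strands in histones, and the core histones and the linker histone H1 are made in bulk only during S phase from clustered genes. Most of their mRNAs end in a stem-loop bound by the protein Slbp and lack a poly(A) tail, and they are degraded when replication ends. Before S phase, origins are licensed by loading of the Mcm helicase, and G1/S genes are induced by E2F factors; genes of spindle and chromosome segregation follow in G2 and mitosis. In the colon, most divisions take place in the lower crypt, in stem cells and their transit-amplifying progeny, while surface colonocytes have left the cycle. Both the droplet kit and the bulk kits prime from poly(A), so histone mRNAs without a tail are captured incompletely, and their levels here are those of captured molecules.

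The 5 ranking genes made up between 0.119% and 0.925% of the UMIs of a histone-high cell, with a median of 0.278%. The median was 0.0999585% in the 250 mitotic cells and 0.00548% in the rest. These values chose the cells and carry no test. The lowest histone-high cell, at 0.118903%, lay next to the highest cell of the rest, at 0.118813%, so the limit runs through a continuum: 12 histone-high cells lay within 10% above it and 27 cells of the rest within 10% below. Of the rest, 862 cells had at least 1 UMI of the ranking genes and 508 had none. A histone-high cell held between 20 and 240 such UMIs, with a median of 80.

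The linker histone gene Hist1h1b supplied 53.3% of the ranking UMIs, with a median of 41 UMIs per cell and a range of 7 to 140. The H2A genes Hist1h2ae and Hist1h2ap supplied 18.8% and 16.4%. The H3 gene Hist1h3c supplied 6.32% and the linker gene Hist1h1a 5.28%. All 5 genes were detected in 378 cells and 4 in the other 22. The cells were selected on the sum of these genes, which favours such joint detection, so it carries no weight. Summed over each set of cells, Hist1h1b stood at 1470.1 CPM (a gene's UMIs scaled by all UMIs of the set) in the histone-high cells, 562.7 CPM in the mitotic cells and 75.8 CPM in the rest. Histone genes of a cluster are near-identical in sequence, so the split of UMIs between copies is uncertain, Hist1h2ae and Hist1h2ap included.

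**Figure D1:**
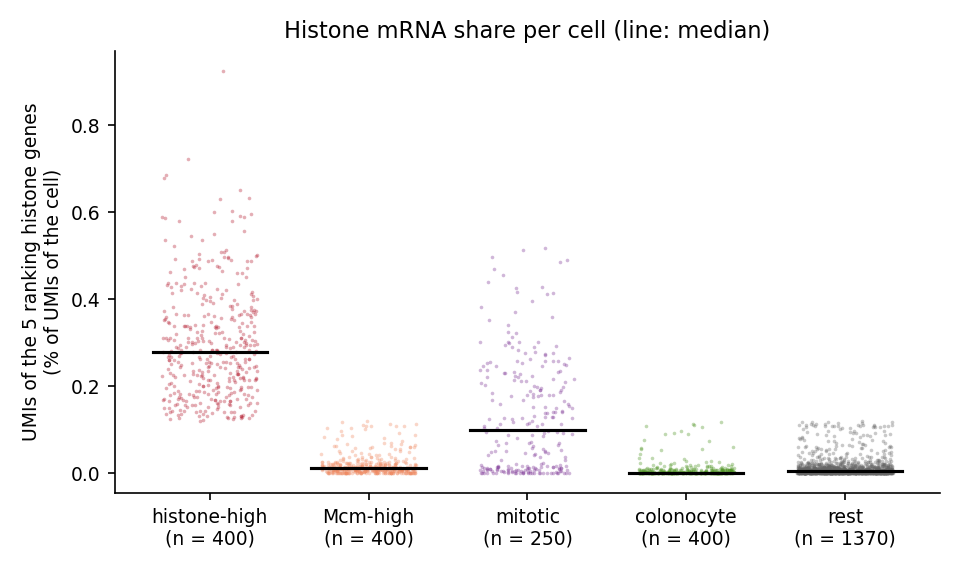
Share of a cell's UMIs in the 5 ranking histone genes (y axis, percent), 1 point per cell, with a line at the median, for the histone-high cells, the Mcm-high cells, the mitotic cells, the colonocyte cells and the rest, which includes the Mcm-high and colonocyte cells. The histone-high cells lie between 0.119% and 0.925%, the mitotic cells lie between 0 and 0.518% with 115 of 250 at or above the lowest histone-high cell, and the other sets end at the limit by construction.

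Sets used beside the rest were the 250 mitotic cells, the 400 cells of the rest with the largest share of Mcm2 to Mcm7, Cdc6 and Gins2 (Mcm-high), and, of the others, the 400 with the largest share of Car4, Slc26a3, Aqp8 and Krt20 (colonocyte). Both sets of 400 lie within the rest. All cells are from 1 library, so no comparison between sets has a replicate or a test; intervals in parentheses are 95% exact intervals of counting error only. A gene is counted as higher or lower where it differed at least 2-fold among genes averaging at least 10 CPM over both sets. On that rule 2.94% of 7657 genes were higher and 2.09% were lower in the histone-high cells than in the rest, and the median log2 ratio of these genes was 0.02. The ranking used the same cells, so these counts are descriptions and nothing rests on them. Median UMIs per cell were 29856.5 in the histone-high cells, 29675 in the mitotic cells, 21638.5 in the Mcm-high cells, 24577.5 in the colonocyte cells and 23618.5 in the rest. After each cell was thinned to 1 common number of UMIs, just below the shallowest cell, the median number of genes was 2401 in the histone-high cells and 2335 in the rest. Doublets were not removed, since the caller used (Scrublet) marked 1 of 3253 cells, which is too few for it to have worked.

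Genes of cycling cells outside the ranking were high in the histone-high cells, and they were not limited to those of S phase. Top2a, the topoisomerase that untangles replicated DNA, was at 550.1 CPM in the histone-high cells and 90.2 CPM in the rest, a ratio of 6.10 (5.85 to 6.36). Pclaf, a factor bound to the replication clamp, was at 418.3 and 85.97 CPM, a ratio of 4.87 (4.65 to 5.09). Mki67, which coats mitotic chromosomes and marks cycling cells, was at 469.7 and 107.4 CPM. Detection followed the same order: in thinned cells, Top2a had a UMI in 93.25% of the histone-high cells, 19.75% of the colonocyte cells and 32.0% of the rest (unthinned 100%, 37.0% and 54.2%). The source of the share in the colonocyte cells, free RNA or cycling cells among them, was not tested. That set held cells with a ranking-gene share of up to 0.118%. Genes of G2 and mitosis were high as well, so the cells are called histone-high rather than S-phase cells.

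Histone genes that took no part in the ranking were mostly high in the same cells. Of 62 such genes, 17 reached the level limit, 14 of these were at least 2-fold higher than in the rest and none was lower, with a median log2 ratio of 2.30 against 0.02 for all genes. Their sum was 1803.3 CPM in the histone-high cells, 1561.1 CPM in the mitotic cells and 639.4 CPM in the rest. A gene that reaches the limit only through the histone-high cells has to be higher, and 4 of the 62 were not seen in the histone-high cells at all.

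The H2A gene Hist1h2ab had the highest ratio of all genes at 50 CPM or more outside the ranking, at 92.9 CPM in the histone-high cells and 3.88 CPM in the rest, a ratio of 23.9 (20.1 to 28.7). It had a UMI in 48.25% of thinned histone-high cells, 1.25% of colonocyte cells and 1.53% of the rest (unthinned 87.0%, 4.25% and 6.72%). Another pair of H2A genes, Hist1h2an and Hist2h2ac, were at 75.3 and 175.9 CPM in the histone-high cells and 5.01 and 16.1 CPM in the rest. Hist1h2ab lies among the histone genes of chromosome 13 and Hist2h2ac on chromosome 3, so the pattern was not limited to 1 cluster. The most abundant member of the list, the linker gene Hist1h1e, was at 488.0 CPM and 99.2 CPM, a ratio of 4.92 (4.72 to 5.13). The linker gene Hist1h1d was at 103.8 and 13.9 CPM, and the H4 gene Hist1h4d at 119.9 and 16.3 CPM.

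Not every histone gene followed. Hist1h2bc, an H2B gene, was at 151.4 CPM in the histone-high cells and 268.98 CPM in the rest, a ratio of 0.563 (0.536 to 0.591), and it was highest in the mitotic cells, at 393.6 CPM, and in the colonocyte cells, at 333.0 CPM. The linker gene Hist1h1c was at 149.9 CPM in the histone-high cells and 99.3 CPM in the rest, below the fold limit. Of the replacement histones, which are made outside S phase too, H2afx was at 243.1 and 60.3 CPM, a ratio of 4.03 (3.82 to 4.26), and H2afz at 1818.7 and 983.4 CPM, a ratio of 1.85 (1.82 to 1.88). H3f3a, an H3 replacement gene, was at 1431.8 and 1273.5 CPM, a ratio of 1.12.

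The promoters of these genes are shown because the groups differ in the short words they hold. RefSeq windows of 250 bases before to 50 after the start (GRCm38.p6) were searched on both strands; in the sequences printed here only 2 E2F words of Mcm6 overlap. Of the 19 histone genes at least 2-fold higher than in the rest, 17 had a window. The 19 include the 5 ranking genes, high by the rule, and genes that reach the level limit only through the histone-high cells. CCAAT was in 15 (88.2%) and TATAAA in 11 (64.7%), against 37.4% and 13.6% of all 32851 promoters searched. Not every chromosome was searched, and that total can hold several windows of a gene, while each listed gene has its first. Histone genes that were not high were not searched as a set, so the words are not shown to be particular to these genes. CCAAT was also common in the other groups, in 71.4% of G1/S licensing, 54.2% of fork and 79.3% of G2/M promoters, while TATAAA was in 4.76%, 4.17% and 6.90% of them. AAACACA, a word known from linker histone promoters, was in 5 (29.4%), against 7.18% of all. The E2F words (TTTCCCGC or TTTGGCGC or TTTCGCGC or TTTGCCGC) were in 2 of these 17 (11.8%), in 12 of 21 G1/S licensing genes (57.1%), in none of 29 G2/M genes and in 2.26% of all promoters. TTTGAA, the core of the CHR element of G2/M promoters, was in 20 of 29 G2/M genes (69.0%), in 9 of the 17 histone genes (52.9%) and in 17.9% of all. A match is a description of the letters and not a test of binding. Below are the 200 bases before the start of 3 histone genes of the histone-high cells, of Mcm6 for the licensing genes and of Top2a, written 5′ to 3′ from RefSeq GRCm38.p6. Capitals mark the CCAAT or TATAAA or AAACACA words in the histone genes, the CCAAT and E2F words in Mcm6, and the CCAAT and TTTGAA words in Top2a, on either strand.
Hist1h1b, chr13:21780626-21780825, minus strand: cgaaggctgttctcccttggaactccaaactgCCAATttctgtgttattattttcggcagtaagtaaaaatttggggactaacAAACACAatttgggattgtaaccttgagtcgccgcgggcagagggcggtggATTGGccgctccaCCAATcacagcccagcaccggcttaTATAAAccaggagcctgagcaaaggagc
Hist1h1e, chr13:23622559-23622758, minus strand: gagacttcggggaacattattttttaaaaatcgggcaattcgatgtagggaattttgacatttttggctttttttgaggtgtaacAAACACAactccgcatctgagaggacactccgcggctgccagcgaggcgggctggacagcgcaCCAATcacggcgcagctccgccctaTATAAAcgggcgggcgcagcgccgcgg
Hist1h2ab, chr13:23750888-23751087, plus strand: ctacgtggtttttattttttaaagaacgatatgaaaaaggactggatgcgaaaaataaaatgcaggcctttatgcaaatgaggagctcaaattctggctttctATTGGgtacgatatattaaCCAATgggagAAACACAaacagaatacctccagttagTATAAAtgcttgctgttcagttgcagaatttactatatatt
Mcm6, chr1:128359706-128359905, minus strand: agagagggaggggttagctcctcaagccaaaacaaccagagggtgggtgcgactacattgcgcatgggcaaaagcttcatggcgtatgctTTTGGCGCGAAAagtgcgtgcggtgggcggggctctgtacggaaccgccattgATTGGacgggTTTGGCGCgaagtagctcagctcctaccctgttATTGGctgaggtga
Top2a, chr11:99024190-99024389, minus strand: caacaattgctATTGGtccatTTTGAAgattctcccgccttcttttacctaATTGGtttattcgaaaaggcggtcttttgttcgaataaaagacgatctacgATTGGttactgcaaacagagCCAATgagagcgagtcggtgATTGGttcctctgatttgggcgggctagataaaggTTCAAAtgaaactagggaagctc

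In Hist1h1b and Hist1h1e the AAACACA word starts 117 and 115 bases before the start, the nearest CCAAT 53 and 52 bases and TATAAA 28 and 27 bases, so the 3 words lie in nearly the same places in both. In Hist1h2ab TATAAA starts 41 bases before. Mcm6 holds 3 E2F matches and Top2a holds 5 CCAAT and 2 TTTGAA matches in the bases shown.

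Genes of origin licensing and the G1/S transition were higher by less. Of 28 genes, 26 reached the level limit, 5 were at least 2-fold higher (Ccne1, Mcm10, Gins2, Cdc45 and Dscc1) and none was lower, with a median log2 ratio of 0.67 and a sum of 1814.7 CPM in the histone-high cells, 2219.3 CPM in the Mcm-high cells, 667.7 CPM in the mitotic cells and 1167.2 CPM in the rest. Mcm6, a subunit of the replicative helicase, was at 149.2, 206.5, 45.2 and 106.7 CPM in these sets in the same order. Mcm3, another subunit, was at 126.4 CPM in the histone-high cells and 94.1 CPM in the rest, a ratio of 1.34 (1.27 to 1.43). Gmnn, an inhibitor of relicensing, was at 164.1 and 94.5 CPM. Slbp, which binds the stem-loop of histone mRNAs, was at 151.5 CPM in the histone-high cells, 142.4 CPM in the Mcm-high cells, 57.3 CPM in the mitotic cells and 91.7 CPM in the rest. Of the histone-high cells, 199 had an Mcm share at least that of the lowest Mcm-high cell.

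Genes of the replication fork stood further apart from the rest. Of 29, 27 reached the limit, 11 were at least 2-fold higher and none was lower. Their sum was 2556.8 CPM in the histone-high cells and 1250.7 CPM in the rest, a ratio of 2.04 (2.02 to 2.07). In the Mcm-high cells the sum was 2169.65 CPM, a ratio of 1.18 (1.16 to 1.20). Against that set 1 of 29 fork genes was at least 2-fold higher and none was lower. Over all 7587 genes at the limit in that comparison, 1.77% were higher and 0.0395% lower. Lig1, the ligase of lagging-strand synthesis, was at 188.6 and 83.2 CPM. Pcna, the sliding clamp, was at 176.1 and 87.5 CPM and Rfc4, a subunit of the clamp loader, at 149.2 and 63.2 CPM. In the Mcm-high cells Lig1 was at 159.1 CPM and Pcna at 156.4 CPM. Nucleotide synthesis genes had 6 of 19 at least 2-fold higher than in the rest and none lower. Against the Mcm-high cells 2 of 19 were higher, with sums of 2057.5 CPM in the histone-high and 1786.15 CPM in the Mcm-high cells. Rrm2, the inducible subunit of ribonucleotide reductase, was at 111.7 CPM in the histone-high cells and 26.7 CPM in the rest, a ratio of 4.19 (3.86 to 4.55). Tyms, which makes thymidylate, was at 235.2 and 95.4 CPM.

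Chromatin assembly and condensation genes were higher too, with 14 of 24 at least 2-fold higher than in the rest and none lower. Their sum was 5967 CPM in the histone-high cells, 3738.6 CPM in the Mcm-high cells and 2751.5 CPM in the rest. Against the Mcm-high cells 8 of 24 were at least 2-fold higher, beside 1.77% of 7587 genes in all. Esco2, which acetylates cohesin on sister chromatids during replication, was at 140.97 and 15.9 CPM, a ratio of 8.88 (8.08 to 9.77). Hmgb2, a DNA-bending chromatin protein, was at 1089 and 411.9 CPM, and Smc2, a condensin subunit, at 242.8 and 66.2 CPM. Of 20 repair genes that act at forks, 14 reached the limit, and 9 of these were at least 2-fold higher than in the rest. A repair gene below 10 CPM in the rest has to be higher in order to reach the limit. Against the Mcm-high cells 15 reached it and none was at least 2-fold higher, with sums of 542.9 and 465.9 CPM.

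**Figure D2:**
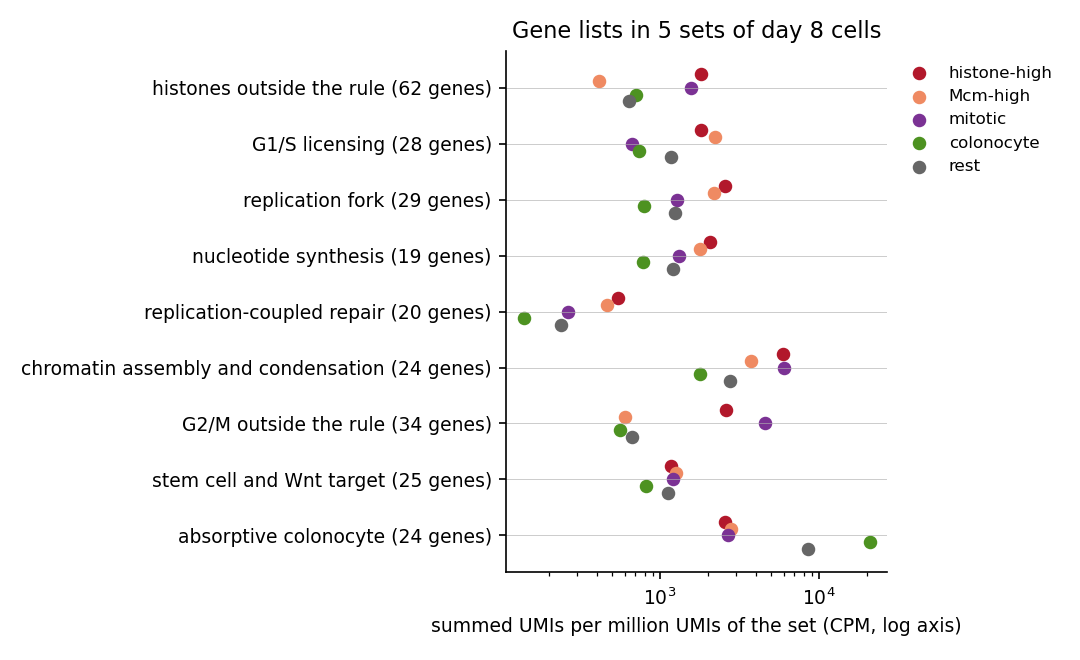
Summed CPM of each set (x axis, log scale) for 9 gene lists in the histone-high, Mcm-high, mitotic and colonocyte cells and the rest. The G1/S licensing list is highest in the Mcm-high cells (2219.3 CPM), the G2/M list in the mitotic cells (4603.1 CPM) and the fork list in the histone-high cells (2556.8 CPM).

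Genes of G2 and mitosis that were not used in setting the mitotic cells apart were higher in nearly every case. Of 34, 33 reached the limit and 31 were at least 2-fold higher, none lower, with a median log2 ratio of 2.46. A gene below 10 CPM in the rest, such as Nusap1 or Plk1, reaches the limit only through the histone-high cells and has to be higher. Their sum was 2615.9 CPM in the histone-high cells, 4603.1 CPM in the mitotic cells, 600.1 CPM in the Mcm-high cells and 665.2 CPM in the rest. Nusap1, a spindle protein, was at 107.0 CPM in the histone-high cells and 9.97 CPM in the rest, a ratio of 10.7 (9.54 to 12.1). Kif11, the kinesin that separates spindle poles, was at 110.4 and 12.6 CPM, and Prc1, which bundles midzone microtubules, at 162.9 and 21.4 CPM. Aurkb, the kinase of the chromosomal passenger complex, was at 83.2 and 11.2 CPM, and Birc5, another member of that complex, at 274.0 and 61.6 CPM. All 5 of these were higher still in the mitotic cells, with Aurkb at 103.9 CPM and Plk1, a mitotic kinase, at 55.5 CPM in the histone-high cells, 118.7 CPM in the mitotic cells and 7.76 CPM in the rest. Of the cell-cycle regulators, 8 of 19 at the level limit were at least 2-fold higher, among them Cdk1 (163.5 and 39.1 CPM) and Cyclin A2, Ccna2 (118.9 and 24.9 CPM). The inhibitor Cdkn1a, picked out after its value was seen, was the 1 lower, at 23.5 CPM in the histone-high cells and 74.8 CPM in the rest, with 196.2 CPM in the colonocyte cells.

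Set against the mitotic cells, 1.26% of 7626 genes were at least 2-fold higher and 0.761% lower in the histone-high cells; against the Mcm-high cells, 1.77% of 7587 were higher and 0.0395% lower. In all, 40 genes were at least 2-fold above both the rest and the mitotic cells, and 7 of these were also above the Mcm-high cells: Rrm2, Hist1h2an, Hist1h1a, Hist1h1b, Esco2, Cdca5 and Hist1h2ae. Esco2 was at 141.0 CPM in the histone-high cells, 57.7 CPM in the mitotic cells and 29.6 CPM in the Mcm-high cells. Cdca5, which with Esco2 secures sister chromatid cohesion, was at 39.8, 18.9 and 10.2 CPM in the same sets. Hist1h1b, Hist1h1a and Hist1h2ae are ranking genes, so their place in this group is given by the rule.

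The histone-high cells were not uniform. They were divided into tertiles of 134, 133 and 133 cells by the share of the 34 G2/M genes, which took no part in the ranking, and the median UMIs were 28551, 28638 and 31224 from the highest to the lowest tertile. In the highest tertile Cdc6, which loads the helicase, was at 10.4 CPM and in the lowest at 31.3 CPM, a ratio of 0.331 (0.229 to 0.471). Ccne2, cyclin E2 of the G1/S transition, was at 9.88 and 27.2 CPM, and Mcm3 at 79.5 and 161.2 CPM. Slbp was at 127.9 and 165.9 CPM, so licensing genes and Slbp were both lower where G2/M genes were high. Histone genes ran the other way, with Hist1h1b at 1704.0 and 1120.4 CPM, a ratio of 1.52 (1.47 to 1.58), and the non-ranking Hist1h2ab at 118.5 and 64.4 CPM. Rrm2 was at 108.4 and 110.3 CPM, and the interval of its ratio, 0.862 to 1.12, included 1. Top2a was at 757.6 and 362.9 CPM.

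**Figure D3:**
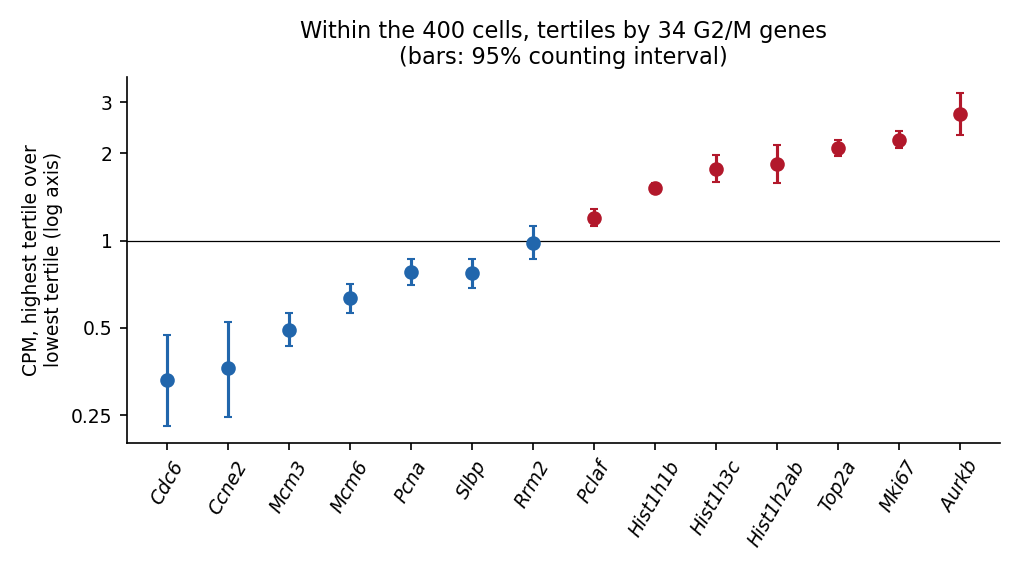
Ratio of CPM (y axis, log scale) in the highest over the lowest tertile of the 400 histone-high cells by the share of 34 G2/M genes, for 14 genes, with 95% counting intervals as bars. Cdc6, Ccne2, Mcm3, Mcm6, Pcna and Slbp lie below 1, Rrm2 at 0.983, and Pclaf, the histone genes, Top2a, Mki67 and Aurkb above 1; Aurkb is among the 34 genes that made the split, so its place is given.

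Along the ranking of all 1770 cells, the lists did not follow the histones in the same way. Cells with a ranking UMI were put in 12 bins of 105 or 106 cells, and the 508 without one in a separate bin. Replication fork genes summed to 3112.3 CPM in the highest bin and 739.2 CPM in the cells without a UMI, and G2/M genes to 3561.1 and 378.3 CPM. G1/S licensing genes varied less, with 1996.6 CPM in the highest bin, 1562.35 CPM in the fourth, 1585.1 CPM in the fifth and 1798.2 CPM in the sixth. The fifth and sixth bins lie outside the histone-high cells. Licensing genes summed to 890.8 CPM in the twelfth bin and 686.7 CPM in the cells without a UMI. Absorptive colonocyte genes summed to 2337.4 CPM in the highest bin and 17129.9 CPM in the cells without a UMI, whose median depth was 16511.5 UMIs. Across the 400 cells, the histone share had a Pearson correlation of 0.568 with the share of histones outside the rule, 0.308 with fork genes and 0.353 with G2/M genes, as a description over cells of 1 library that share total depth as denominator.

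**Figure D4:**
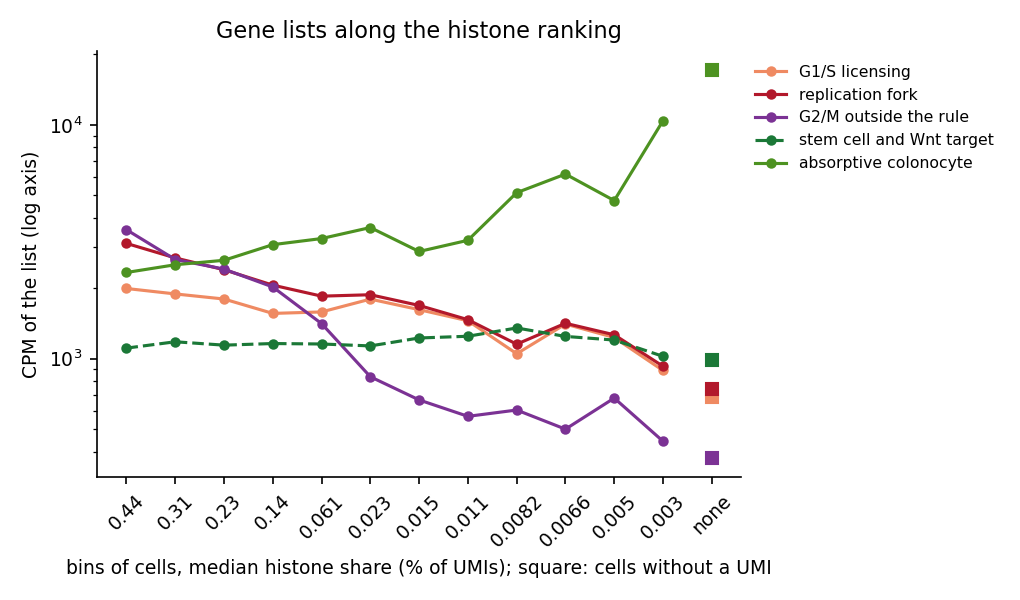
CPM of 5 gene lists (y axis, log scale) in bins of cells ordered by their histone share (x axis, median percent of UMIs per bin, highest at left), with squares for the 508 cells without a ranking UMI. The first 4 bins hold the histone-high cells, and the limit runs inside the fourth, where 83 of 105 cells are histone-high. G2/M genes stand at 2026.7 CPM in the fourth bin and 837.6 CPM in the sixth, the steepest step of the 5 lists there. Stem cell and Wnt target genes lie between 1023.9 and 1353.7 CPM in the 12 bins and at 983.7 CPM in the cells without a UMI.

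Stem cell and Wnt target genes showed little difference. Of 25, 19 reached the limit and none was at least 2-fold higher or lower, with sums of 1165.97 CPM in the histone-high cells and 1122.7 CPM in the rest, a ratio of 1.04 (1.02 to 1.06). Ascl2 was at 19.6 CPM in the histone-high cells and 19.2 CPM in the rest, and the interval of the ratio was 0.881 to 1.18. Lgr5, the stem cell receptor whose GFP-positive cells the sort excluded, was at 2.94 and 2.11 CPM, a ratio of 1.40 (0.917 to 2.10). Slc12a2, a chloride cotransporter of lower crypt cells, was at 208.1 and 185.9 CPM, and Sox9, a crypt transcription factor, at 121.6 and 136.2 CPM. The p53 target list summed to 614.9 and 620.6 CPM, with none of 9 genes past the limit. That list does not hold the p53 target Cdkn1a, which was counted among the cell-cycle regulators and was lower, as given above.

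Genes of mature colonocytes were low in the histone-high cells. Of 24, 21 reached the limit, 16 were at least 2-fold lower and none was higher, with sums of 2561.4 CPM in the histone-high cells, 2686.1 CPM in the mitotic cells, 2803.2 CPM in the Mcm-high cells and 8576.7 CPM in the rest. Slc26a3, the chloride and bicarbonate exchanger of surface cells, was at 0.159 CPM in the histone-high cells, from 2 UMIs, and 107.8 CPM in the rest. Car4, a carbonic anhydrase, was at 0.318 and 165.6 CPM, and Saa1, an acute-phase protein, at 2.07 and 605.3 CPM. The rest includes the 400 colonocyte cells, where Saa1 was at 1964.5 CPM. The lowest ratios also included Tgm3 (0.477 and 108.0 CPM) and Clca4b (1.59 and 94.9 CPM). Genes of the repair epithelium summed to 2901 CPM in the histone-high cells and 4584.1 CPM in the rest, with Ly6a at 340.4 and 642.5 CPM. The list was at a similar level in the mitotic cells (3010.75 CPM) and the Mcm-high cells (2873.7 CPM), and at 7624.55 CPM in the colonocyte cells.

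Other lineages were near or below the level of the rest. Goblet genes outside the exclusion list summed to 359.1 CPM in the histone-high cells and 393.2 CPM in the rest, against 8704.3 CPM in the 1233 secretory cells. Enteroendocrine genes summed to 37.3 and 164.5 CPM, and stromal and endothelial genes to 3.34 and 5.29 CPM. The enteroendocrine share of a cell's UMIs had a median of 0 in both sets. Its maximum was 0.855% in the histone-high cells and 20.9% in the rest, so these sums do not describe a typical cell. Of the 16 immune markers, 12 had no UMI in the histone-high cells, and nearly all of the list's 1932.0 CPM there was Cd74, an MHC class II chain, at 1931.5 CPM, against 2267.6 CPM in the rest. In droplets with 10 to 100 UMIs, taken as free RNA, the 5 ranking genes summed to 744.3 CPM, above the 164.5 CPM of the rest and below the 2759.5 CPM of the histone-high cells; its part in the values of the rest was not tested.

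Bulk libraries measured the same genes apart from the ranking, over whole sorted populations. A level in bulk cannot tell fewer cycling cells from less RNA per cell. Adult libraries held 16553279 to 30074569 counts in genes and hindgut libraries 13826958 to 30583908. TMM scaling factors were 0.616 and 0.660 in the KO libraries, 1.11 in both regenerating libraries and 1.21 to 1.32 in wild type, so the KO libraries stand apart. Ascl2, the targeted gene, was at 53.8 and 59.2 CPM in the KO libraries, against 109.7, 151.3 and 104.2 CPM in wild type. The transcript was thus still counted in the KO libraries; the position of the deletion is not given in the sources used here. Xist, made from the inactive X of females, was at 0.0299 and 0.0322 CPM in the regenerating libraries and at 49.997 and 0.0916 CPM in the KO libraries, against 28.5, 0.292 and 18.2 CPM in wild type. Sex thus differs within the KO and wild-type groups and in part between regenerating and wild type, and its part in the results was not tested. Nothing in the labels says that the adult replicates are separate animals, and p-values then measure the spread between these samples, which may be technical.

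In regenerating cells against wild type, none of 100 S-phase genes (the G1/S licensing, fork, nucleotide and chromatin lists) passed edgeR's quasi-likelihood test with Benjamini-Hochberg adjustment at 0.05, beside 0.331% of 13911 genes in all (0.302% higher and 0.0288% lower); none had an unadjusted p below 0.05, and DESeq2 called none. Hist1h1b was at 21.8 and 12.5 CPM in regenerating cells, against 24.8, 32.6 and 17.2 CPM in wild type. The groups overlapped, and the log2 fold change was -0.54 (SE 0.33, adjusted p = 0.692 by edgeR). Hist1h1a, Hist1h2ae and Hist1h3c lay between 0.04 and 0.31 in log2 fold change and did not pass. Top2a was at 124.2 and 75.0 CPM in regenerating cells, against 132.4, 89.7 and 85.7 CPM in wild type, a log2 fold change of -0.04 (SE 0.28). The SE allows changes of moderate size in either direction, so equal levels are not shown. The 4 lists had median log2 fold changes of -0.18 to -0.11, against 0.01 over all genes, and none of 44 histone genes outside the rule passed. Their median was 0.22, that of 20 repair genes 0.06 and that of 34 G2/M genes -0.35, also with none passing. Mki67 was at 50.4 and 41.1 CPM in regenerating cells, against 81.6, 64.1 and 64.7 CPM in wild type, without overlap. Its log2 fold change was -0.62 (SE 0.22), and it did not pass (adjusted p = 0.343 by edgeR). Hist1h2ap is listed at 0 in every bulk library; the authors' table sets reads that align to several places aside without giving them to a gene, so for a histone gene with near-identical copies this 0 does not show absence.

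In the KO libraries many histone genes rose, while more licensing genes fell than rose. Hist1h1b was at 149.4 and 140.2 CPM in the KO libraries, against 24.8, 32.6 and 17.2 CPM in wild type, with no overlap; the log2 fold change was 2.54 (SE 0.33, adjusted p = 0.000457 by edgeR). Of the 4 ranking genes tested, Hist1h1b, Hist1h2ae and Hist1h1a rose, and Hist1h3c, at a log2 fold change of 2.03, did not pass. The Hist1h1a call (adjusted p = 0.0167 by edgeR) was lost without KO replicate 1 (adjusted p = 0.0787) and with library sizes in place of TMM (adjusted p = 0.103). Of 44 histone genes outside the rule that could be tested, 20 rose and 1 fell, beside 18.8% and 17.4% of 13911 genes in all (36.2% in either direction); their median log2 fold change was 2.75, against -0.02 over all genes. Hist1h1e was at 94.3 and 98.3 CPM in the KO libraries, against 23.2, 20.8 and 17.4 CPM in wild type. Of 100 S-phase genes, 24 rose and 30 fell; 29 in all passed without KO replicate 1 and 32 without KO replicate 2. By list, 4 G1/S licensing genes rose and 12 fell, while 9 fork genes rose and 5 fell. Mcm6 fell to 57.97 and 56.5 CPM in the KO libraries, against 171.9, 306.9 and 163.5 CPM in wild type, a log2 fold change of -1.90 (SE 0.33, adjusted p = 0.00231 by edgeR). Dut, which removes dUTP, rose, with 448.9 and 419.2 CPM in the KO libraries, against 95.7, 142.1 and 88.95 CPM in wild type, while Rrm1, the large reductase subunit, fell, at 32.5 and 41.97 CPM against 144.6, 173.5 and 116.2 CPM. Top2a, at a log2 fold change of 0.78 (SE 0.28), did not pass (adjusted p = 0.0539 by edgeR). DESeq2 called it (adjusted p = 0.0214), and edgeR's adjusted p was 0.0289 to 0.192 when 1 library was left out, below 0.05 without wild-type replicate 1 and without regenerating replicate 1. These directions rest on the scaling: with library sizes in place of TMM, 4 S-phase genes rose and 50 fell, all genes split into 1233 higher and 5328 lower in place of 2618 and 2421, and Hist1h1b kept a log2 fold change of 1.55 and Dut of 1.00, while Tyms, at 1.36 by TMM, was at 0.38. That scaling moved the median of all genes to -1.001. It also turned Top2a to -0.20 and left the histone genes outside the rule at a median of 1.78.

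In the hindgut most S-phase genes fell between E11 and E16. Of 100, 62 fell and 2 rose at E16 against E11, beside 26.2% lower and 29.6% higher of 16481 genes in all (55.7% in either direction). Of 34 G2/M genes 24 fell and 1 rose. Hist1h2ae, in the order E11, E12, E14 and E16, was at 16.2 and 17.5 CPM, 7.26 and 16.6 CPM, 8.45 and 6.01 CPM, and 2.90 and 4.59 CPM. Its log2 fold change at E16 against E11 was -2.17 (SE 0.49, adjusted p = 0.00655 by edgeR). Hist1h3c fell as well, by 2.22 on the log2 scale, whereas Hist1h1b, at -0.85, and Hist1h1a, at -1.36, did not pass (adjusted p = 0.067 and 0.0753 by edgeR), although DESeq2 called both (adjusted p = 0.0453 and 0.0399). The Hist1h2ae call was lost without E16 replicate 1 (adjusted p = 0.0563 by edgeR). The Hist1h3c call (adjusted p = 0.0311 by edgeR) was lost without E11 replicate 2, either E14 library or either E16 library, with adjusted p between 0.056 and 0.184. Of 49 histone genes outside the rule, 7 fell and 2 rose; Hist1h1e was at 14.9 and 17.4 CPM at E16, against 35.02 and 39.6 CPM at E11. Rrm2, in the same order of ages, was at 325.8 and 394.7 CPM, 336.95 and 359.7 CPM, 266.3 and 265.2 CPM, and 151.7 and 161.4 CPM, and fell by 1.20 on the log2 scale at E16. Top2a was highest at E14, at 389.95 and 403.8 CPM, and lowest at E16, at 152.5 and 122.7 CPM. Mcm6 did not pass, at 371.5 and 380.8 CPM at E16, against 374.7 and 448.96 CPM at E11.

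**Figure D5:**
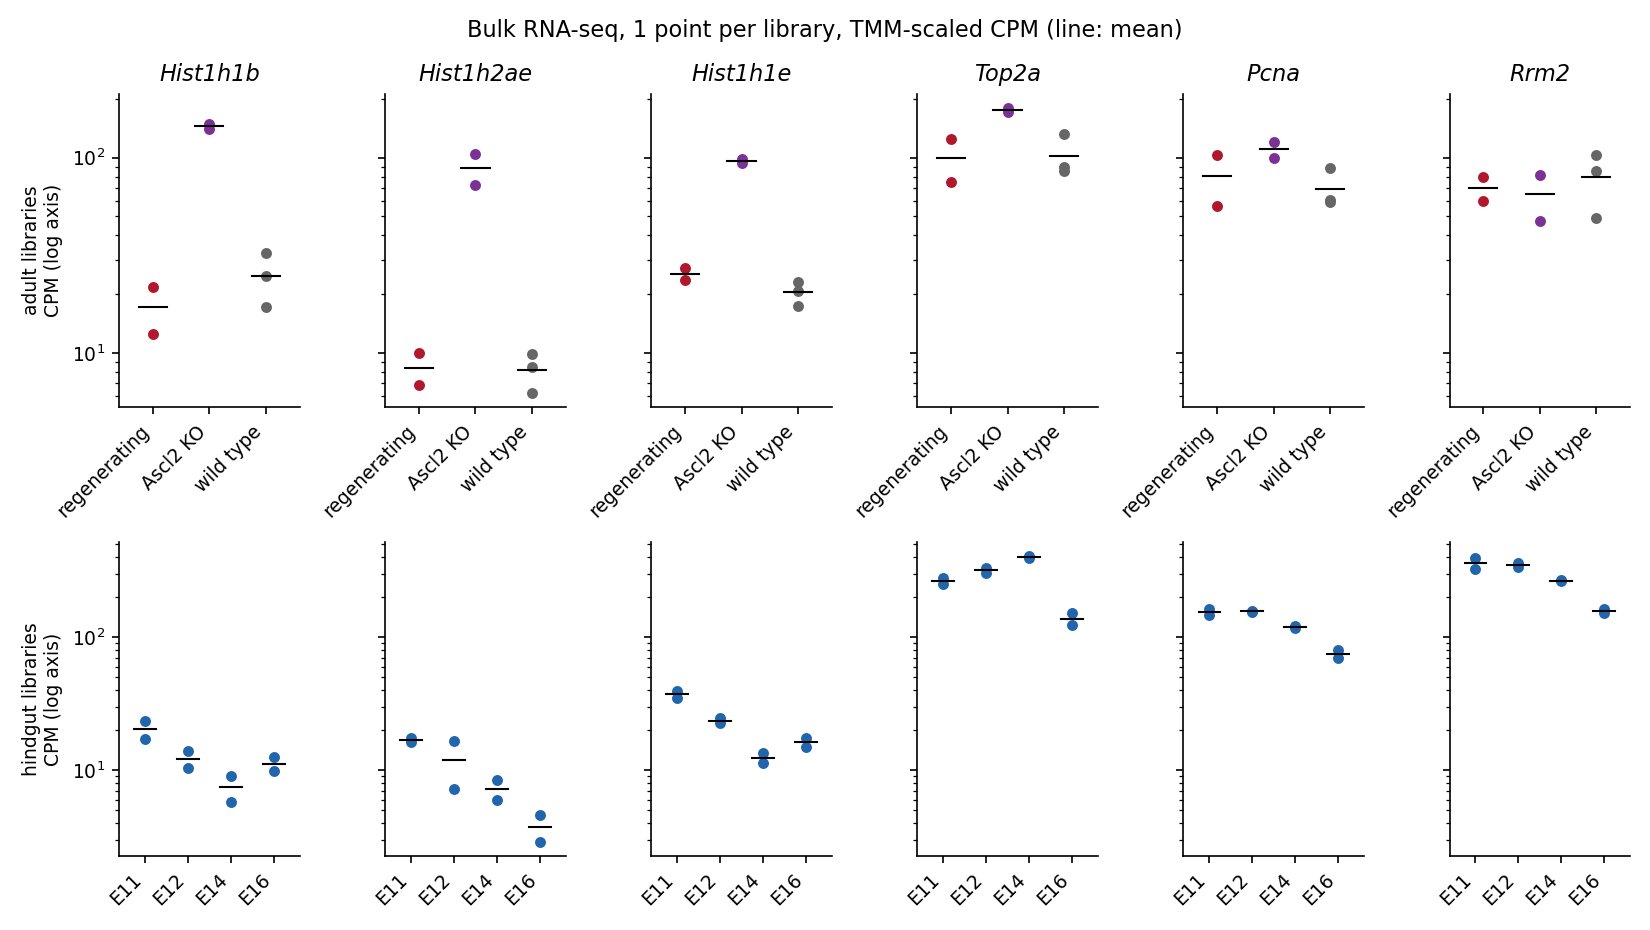
CPM on the TMM scale (y axis, log scale) of 6 genes in each bulk library, 1 point per library with a line at the mean, for adult libraries (top: regenerating, Ascl2 KO, wild type) and hindgut libraries (bottom: E11, E12, E14, E16); the rows have separate scales. The KO libraries lie above wild type without overlap for Hist1h1b, Hist1h2ae, Hist1h1e, Top2a and Pcna, of which Top2a and Pcna did not pass edgeR's test and turn in sign with library-size scaling, while regenerating and wild-type points overlap for Hist1h1b, Hist1h2ae, Top2a, Pcna and Rrm2.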

How the data were processed

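The members and gene lists were chosen with earlier results of these data known. For the single cells the authors deposited raw UMI counts for every barcode, made by Cell Ranger 3.0.2 per the file headers. The authors' bulk table holds read counts per gene symbol, credited to STAR 2.5.3a and HTSeq in the submitters' processing notes, which name GRCm38 and mm10; strand setting and annotation are not given in the sources used here. The 5 bulk entries without a gene, 42.9 to 62.0% of all reads counted, stayed out of library sizes and tests.

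Cells were selected as described, UMIs were summed per set and divided by the set's total (CPM), and ratios have exact conditional intervals of 95% confidence; PCR and pooled cells mean that intervals cover counting error only. Shares of cells were taken after thinning each cell to the same number of UMIs. A floor of 3 counts applies to a share of 0. Gene names were matched to RefSeq GRCm38.p6 for 25723 symbols; histone genes were matched through unique synonyms. Scripts ran in Python 3.11.15 with numpy 2.4.6, scipy 1.17.1 and scanpy 1.11.5 (Scrublet).

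Bulk genes were filtered with filterByExpr by group, scaled with TMM and tested two-sided by quasi-likelihood in edgeR 4.0.16 (R 4.3.3; Benjamini-Hochberg adjustment), with group as the term, all 7 adult libraries in 1 fit and all 8 hindgut libraries in another, at an adjusted p of 0.05; DESeq2 1.42.0 was an alternative. The fit was also run on data simulated from its own estimates, and nothing here rests on that run. Named genes are the 20 highest and 10 lowest ratios at 50 CPM or more, up to 5 of the most abundant genes of each list, the ranking genes, Top2a, Pclaf, Mki67, Ascl2, Lgr5 and Slbp, and in bulk up to 4 of each S-phase list; other genes named singly were chosen after their values were seen, as were Cdc6, Ccne2, Ccne1, Cdca5 and Cdkn1a. Alternatives were other UMI minimums, numbers of members, rankings and filters, scaling, DESeq2, a replicate block and leaving out each library. ChIP libraries were not analysed here.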

Additional observations from a re-analysis of the deposited data

Results flagged for a closer look

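The 1233 secretory cells, which the selection leaves out, also held histone-rich cells. Of them, 116 had a histone share at or above that of the lowest histone-high cell, 9.41% with a 95% exact interval of 7.84 to 11.2%, at a median depth of 14555 UMIs for secretory cells. Of the 250 mitotic cells 115 did so, 46.0% (39.7 to 52.4%). None of the 400 colonocyte cells did, which allows a share of up to 0.75%, but these cells were taken from those below the limit, so that 0 is set by the selection.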

How the results depend on the processing

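In the cells, the ratio of histones outside the rule was 2.98 with 200 members, 2.06 with 800, 2.70 with the mitotic cells kept in and 3.05 with cells weighted equally after thinning, against 2.82 as reported. The G1/S licensing ratio was 1.83 with 800 members, 1.48 with mitotic cells kept in, 1.60 with secretory UMIs under 0.5%, 1.47 when ranked without the linker histones and 1.70 with cells weighted equally, against 1.55. The G2/M ratio was 3.38 with 200 members, 3.82 with 800, 2.78 with mitotic cells kept in, 4.28 with secretory UMIs under 0.5%, 4.11 when ranked without the linker histones and 4.50 with cells weighted equally, against 3.93. The stem cell ratio was 1.02 with 200 members, 1.06 with 800 and 1.01 with cells weighted equally, against 1.04. The other UMI minimums moved none of the 4 beyond counting error. Removing the 1 called doublet, a cell of the rest, tests nothing. Keeping mitotic cells in shares 319 of 400 members (79.75%), and 800 members reach down to a histone share of 0.0109%.

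In bulk, regenerating against wild type gave 225 calls without a filter on low counts and 372 with DESeq2, against 46, and 1 to 39 when a library was left out; without regenerating replicate 2 or without wild-type replicate 1 it gave 1. The S-phase count there stayed at 0. In KO against wild type 29 to 51 S-phase genes were called without 1 library, 29 without KO replicate 1 and 32 without KO replicate 2, against 54; all genes ranged from 3413 to 4577. For E16 against E11 the ranges were 58 to 75 S-phase genes and 6385 to 9209 genes. Where leaving out a library leaves 1 in a group, that library is assumed to vary like the others. Deviations of samples with the same number had correlations of -0.02 to 0.11. In a group of 2 libraries the deviations mirror each other, so these values cannot decide whether equal numbers mark pairs. Xist was high in replicate 1 of KO and wild type (49.997 and 28.5 CPM) and low in replicate 2 of both (0.0916 and 0.292 CPM). With a replicate block, 47, 4353 and 8429 genes and 0, 51 and 65 S-phase genes were called. Depth of 1 library and incomplete capture of histone mRNA without poly(A) tails limit all single-cell values.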
